A study of Mus musculus with 16 samples.

Results

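The genes described here are Cd14 and 9 Toll-like receptors, Tlr1, Tlr2, Tlr3, Tlr4, Tlr6, Tlr7, Tlr8, Tlr9 and Tlr13, taken by their symbols from a table of 54347 genes. Transcriptomes were measured in LSKs, the bone marrow compartment of stem and multipotent cells sorted as Lin-Sca-1+c-Kit+, and in GMPs, the progenitors of granulocytes and monocytes, sorted as Sca-1-negative c-Kit+ lineage-negative cells with Cd16/32, of URE and WT mice. Each of the 4 groups comprised 4 RNA-seq libraries. URE mice lack the upstream regulatory element, an enhancer of Spi1, the gene of the transcription factor PU.1. The cells were sorted from flushed femurs after enrichment for c-Kit. WT littermates on the same C57BL/6 background served as controls, and all mice were 8 to 12 weeks old. The labels do not say whether LSKs and GMPs of the same replicate number came from 1 mouse. Levels are given as CPM, that is counts scaled to TMM-normalized library sizes.

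Toll-like receptors sense conserved microbial molecules, either at the cell surface or within endosomes. Tlr2 pairs with Tlr1 or Tlr6 to detect bacterial lipopeptides, and Tlr4 detects lipopolysaccharide, which Cd14 hands over to Tlr4 and its partner Ly96. Tlr3, Tlr7, Tlr8, Tlr9 and Tlr13 are endosomal receptors of nucleic acids and reach their compartment with the help of the chaperone Unc93b1. Most of the receptors signal through the adaptor Myd88 to NF-kB and interferon regulatory factors, whereas Tlr3 uses Ticam1. In the bone marrow, Cd14 and most Toll-like receptors are best known from monocytes and macrophages, and stem and progenitor cells can carry some of them.

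Total counts ranged from 20028302 to 29128858 per library. Spi1 itself was at 69.5 to 165 CPM in WT LSKs and at 1.13 to 4.44 CPM in URE LSKs, and at 84.8 to 181 CPM in WT GMPs and 15.6 to 28.6 CPM in URE GMPs. It was thus lower in every URE library than in every WT library of the same cell type. The sorted populations carried their own markers. Ly6a, which encodes Sca-1, lay between 35.1 and 122 CPM in LSKs and did not exceed 2.88 CPM in GMPs, while Mpo was at 43550 CPM or more in each GMP library. Replicates 1 and 4 were also compared separately from replicates 2 and 3, a division known from earlier results of these data and not from the labels. The sexes were unevenly spread, since 1 of 4 URE libraries and 3 of 4 WT libraries of each cell type had Y-linked transcripts. Where a call of the 10 genes was lost with Y-linked transcripts as covariate or within one of these pairs of replicates, this is given beside its value.

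Of the 9 members tested, Cd14 had the log2 fold change farthest from 0 between genotypes in LSKs and in GMPs with edgeR over all 8 libraries. It was lower in URE mice in both cell types. Over the alternatives run, its values in GMPs (-5.45 to -3.60) overlapped with those of Tlr3 (-4.61 to -3.06). This gene, on chromosome 18 from 36725067 to 36726798 on the minus strand, encodes the lipopolysaccharide co-receptor. In WT LSKs, Cd14 was at 4.48, 6.37, 7.49 and 4.31 CPM in replicates 1 to 4, against 0, 0.629, 0.463 and 0.125 CPM in URE LSKs. The highest URE library thus lay well below the lowest WT library. The log2 fold change was -4.21 ± 0.81 (SE, n = 4 per group, adjusted p = 0.0141, quasi-likelihood test of edgeR, adjusted by Benjamini-Hochberg, as for all adjusted p-values below), that is 18.5-fold. In GMPs, Cd14 was at 33.4, 34.2, 42.9 and 41.6 CPM in WT mice and at 0.771, 4.44, 2.10 and 0.957 CPM in URE mice. The groups were again far apart, with a log2 fold change of -4.22 ± 0.53 (18.7-fold, adjusted p = 0.00174). With Y-linked transcripts as covariate, the log2 fold change in LSKs was -4.54 and did not pass the test (adjusted p = 0.058), while that in GMPs passed under each alternative run. Without URE replicate 2, the log2 fold change was -4.84 in LSKs and -4.90 in GMPs.

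Tlr4, the receptor for lipopolysaccharide (chromosome 4, 66827584 to 66930284, plus strand), was lower in URE LSKs but not in URE GMPs. WT LSKs held 31.5, 27.3, 15.7 and 29.8 CPM and URE LSKs 9.78, 9.63, 9.25 and 8.61 CPM. The URE libraries lay within a narrow range, below the lowest WT library, with a log2 fold change of -1.51 ± 0.25 (2.85-fold, adjusted p = 0.00638). This call was lost within replicates 2 and 3 alone, with -1.21 (adjusted p = 0.259). In GMPs, the WT libraries were at 15.2, 15.7, 10.8 and 17.7 CPM and the URE libraries at 10.8, 24.0, 6.81 and 17.2 CPM. The URE GMPs spread on both sides of the WT GMPs, and the log2 fold change was -0.03 (adjusted p = 0.978). The difference between the genotype effects of both cell types was 1.47 ± 0.46 on the log2 scale and did not pass the test (adjusted p = 0.149). It passed with the replicate number as a block, at 1.33 (adjusted p = 0.0374), as did 3.97% of all genes in that direction.

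**Figure D1:**
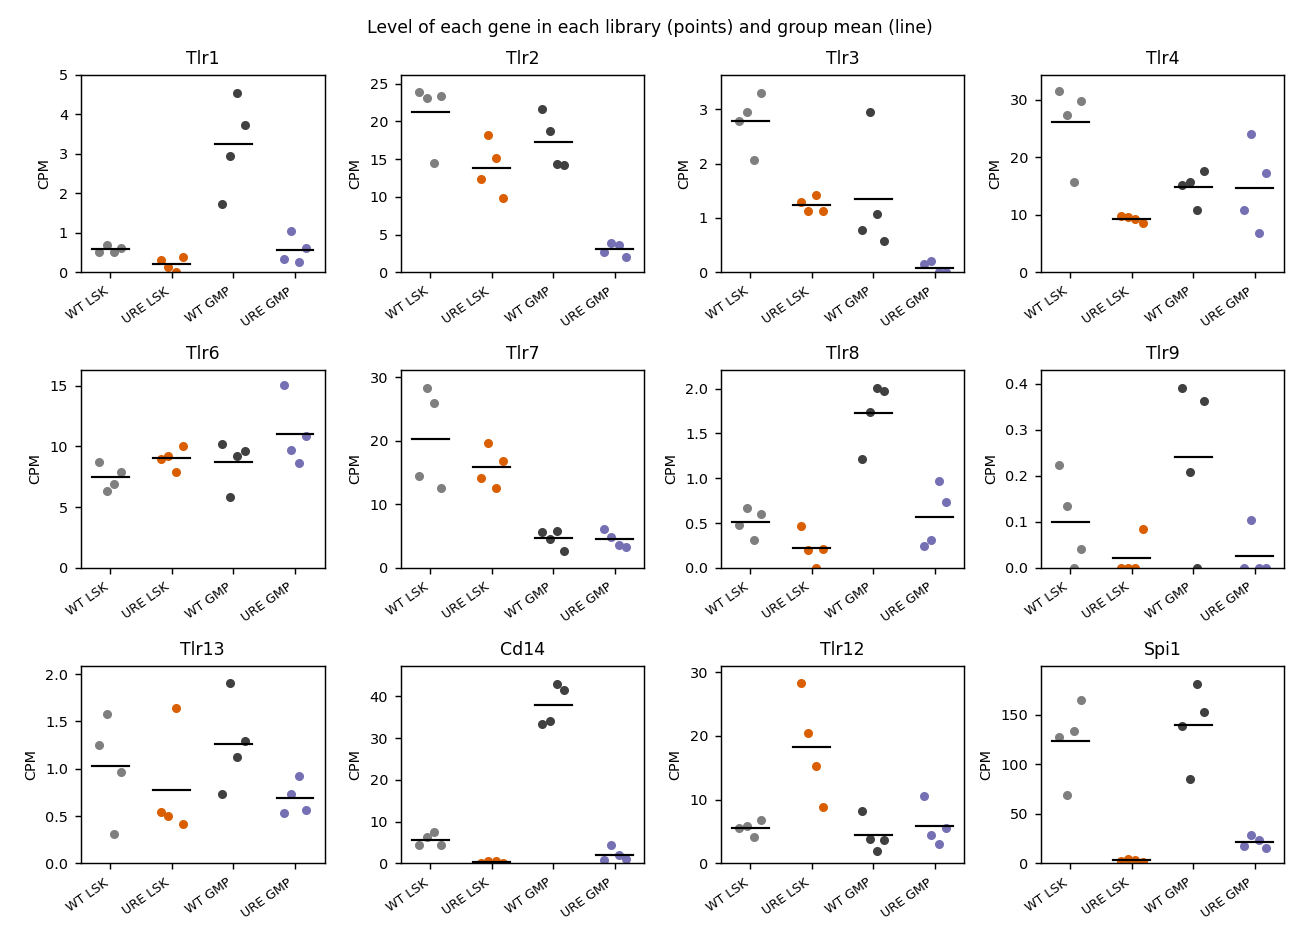
CPM of the 10 genes, of Tlr12 and of Spi1 in each library, with points for replicates 1 to 4 from left to right and lines for the mean of 4 libraries; each panel has its own linear axis from 0. The URE libraries of Cd14 lie below the WT libraries in both cell types, and those of Tlr4 in LSKs but not in GMPs.

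Of the 10 genes, 2 (Tlr4 and Cd14) passed the test as lower in URE LSKs and 0 as higher, 7 were tested without passing, and Tlr9 had too few counts for the test. Among the 15154 genes tested in LSKs, 3.76% passed as lower and 2.38% as higher. In GMPs, 4 genes passed as lower (Tlr1, Tlr2, Tlr3 and Cd14) and 0 as higher, beside 3.63% of 13829 tested genes that passed as lower and 4.67% that passed as higher. At an unadjusted p below 0.05 with edgeR, 0 of the genes were higher in either cell type, and DESeq2 called 0 as higher. Without overlap between the genotypes, 4 of the 10 genes were lower in URE LSKs (Tlr1, Tlr3, Tlr4 and Cd14) and 5 in URE GMPs (Tlr1, Tlr2, Tlr3, Tlr8 and Cd14), against 6.90% and 6.98% of the genes tested. Of the 9 genes tested, 8 had a log2 fold change below 0 in LSKs and 8 in GMPs, and the exception in both was Tlr6. In GMPs, those of Tlr4 and Tlr7 were close to 0 (-0.03 and -0.07) and changed sign under some alternatives. The median log2 fold change of the 9 genes was -1.18 in LSKs and -1.61 in GMPs, while that of all tested genes was 0.001 and 0.005.

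Of the 3 genes of the lipopeptide receptors, Tlr1 and Tlr2 passed as lower in URE GMPs, and Tlr6 passed in neither cell type. Tlr2, the shared partner (chromosome 3, 83836272 to 83841767, minus strand), was lower in URE GMPs. WT GMPs held 21.6, 18.7, 14.3 and 14.3 CPM and URE GMPs 2.75, 3.92, 3.64 and 1.97 CPM, so that the groups were widely separated, with a log2 fold change of -2.50 ± 0.29 (5.65-fold, adjusted p = 0.00122). Within replicates 2 and 3 alone it was -2.15 and did not pass (adjusted p = 0.0794). In LSKs, Tlr2 was at 23.9, 23.1, 14.6 and 23.4 CPM in WT and at 12.3, 18.3, 15.1 and 9.86 CPM in URE mice. Here the groups overlapped because of WT replicate 3, and the log2 fold change of -0.64 ± 0.26 did not pass (adjusted p = 0.265). Within replicates 1 and 4 alone, the log2 fold change in LSKs was -1.13 and passed (adjusted p = 0.0421). Of the 9 tested genes, 1 passed the interaction test with edgeR, Tlr2, whose genotype effects differed between the cell types by -1.88 ± 0.38 on the log2 scale (adjusted p = 0.0255). Over all genes, 0.351% passed this interaction test in that direction and 0.866% in the other. The call was lost without URE GMP replicate 4 (-1.73, adjusted p = 0.0514), without WT LSK replicate 2 (-1.92, adjusted p = 0.052), and within either pair of replicates (adjusted p = 0.0892 for 1 and 4, 0.689 for 2 and 3). DESeq2 called Tlr2 and also Tlr3 (-2.80, adjusted p = 0.043, compared with -2.67 and 0.218 with edgeR). Leaving out 1 library gave -3.46 to -1.96 for Tlr3 with edgeR (adjusted p from 0.148 to 0.412). Tlr4 passed with the replicate block, as given above, and without URE GMP replicate 3 (1.68, adjusted p = 0.0351).

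Tlr1, which forms the receptor for triacylated lipopeptides with Tlr2 (chromosome 5, 64924679 to 64933563, minus strand), was lower in URE GMPs. It was at 1.73, 2.95, 4.54 and 3.73 CPM in WT GMPs and at 0.337, 1.04, 0.256 and 0.619 CPM in URE GMPs. No URE library reached the lowest WT library, and the log2 fold change was -2.54 ± 0.51 (5.80-fold, adjusted p = 0.0148). The values without URE replicate 1 (-2.36, adjusted p = 0.0501), without URE replicate 4 (-2.59, adjusted p = 0.0506) and within replicates 2 and 3 alone (-2.57, adjusted p = 0.252) did not pass. In LSKs the counts were small, 13 to 21 per WT library and 0 to 9 per URE library. The WT libraries held 0.512, 0.704, 0.507 and 0.604 CPM and the URE libraries 0.312, 0.132, 0 and 0.376 CPM. Although these groups did not overlap, the log2 fold change of -1.52 ± 0.74 did not pass the test (adjusted p = 0.392).

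Tlr6, which pairs with Tlr2 for diacylated lipopeptides, lies next to Tlr1 on the same strand of chromosome 5 (64952031 to 64960097). It held 8.71, 6.34, 6.87 and 7.89 CPM in WT LSKs and 8.92, 9.24, 7.86 and 10.0 CPM in URE LSKs. In GMPs it was at 10.2, 5.85, 9.18 and 9.64 CPM in WT mice and at 15, 9.66, 8.60 and 10.9 CPM in URE mice. The genotypes overlapped in both cell types. The log2 fold change was 0.24 ± 0.23 in LSKs (adjusted p = 0.786) and 0.33 ± 0.27 in GMPs (adjusted p = 0.595), and Tlr6 passed no test in any of the 5 comparisons. Tlr1 and Tlr6 transcripts are similar in sequence. Of 3322 stretches of 31 bases in the annotated transcripts of Tlr1, 665 also occur in other genes, and of those of Tlr6 16.6%. Most of them (607) are shared between both genes, so that reads from these stretches could be divided between them in the quantification. The remaining receptors shared none, apart from Tlr3 (6.10%) and Tlr4 (0.667%).

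**Figure D2:**
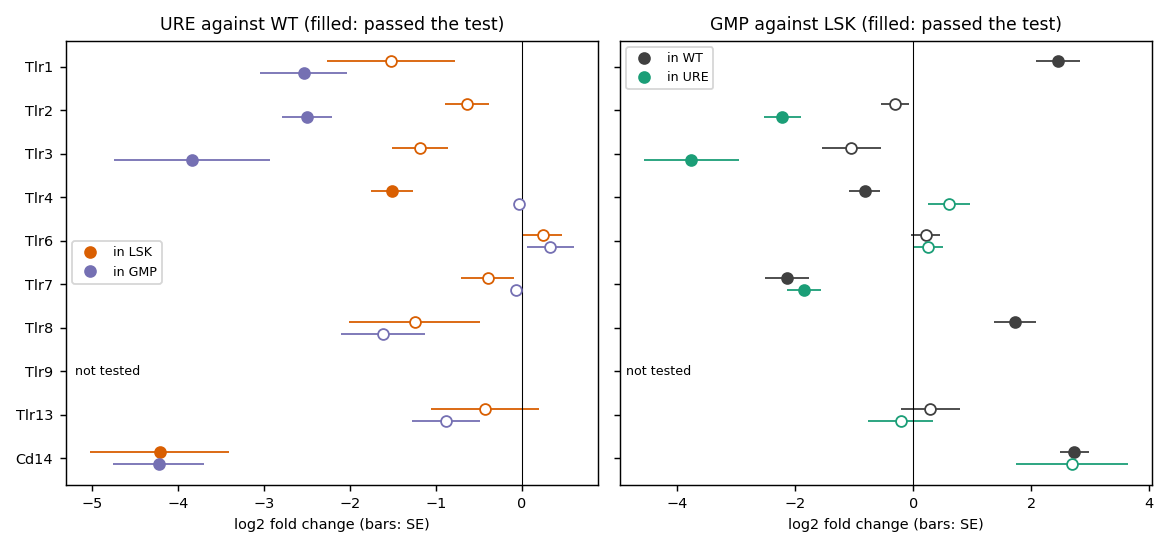
Log2 fold change of each gene between genotypes (left, in LSKs and in GMPs) and between cell types (right, in WT and in URE mice), with bars for the SE where the fold change is not close to 0. Filled points passed the test; Tlr9 had too few counts in each comparison, as had Tlr1 and Tlr8 between the cell types of URE mice.

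Of the endosomal receptors among the 10 genes, Tlr3, which binds double-stranded RNA (chromosome 8, 45395665 to 45411080, minus strand), was the 1 that passed the genotype test, in GMPs. In GMPs it was at 0.779, 2.95, 1.08 and 0.570 CPM in WT and at 0.145, 0.209, 0 and 0 CPM in URE mice. These URE values stand for 3, 4, 0 and 0 counts, and all 4 were below the lowest WT library. The log2 fold change was -3.83 ± 0.91 (adjusted p = 0.031). It kept its direction but not its call without URE replicates 1, 3 or 4 or WT replicate 2 (-4.16, -3.46, -3.46 and -3.12, adjusted p = 0.0722, 0.0579, 0.0867 and 0.085), with Y-linked transcripts as covariate (-3.20, adjusted p = 0.13), and within either pair of replicates (-3.06 and -4.23, adjusted p = 0.109 and 0.223). Without URE replicate 2 it was -4.61 and passed (adjusted p = 0.0375). In LSKs, Tlr3 was at 2.79, 2.95, 2.07 and 3.30 CPM in WT and at 1.29, 1.13, 1.43 and 1.13 CPM in URE mice. The URE libraries were all below the WT libraries. The log2 fold change of -1.18 ± 0.32 did not pass with edgeR (adjusted p = 0.069) and passed with DESeq2 (-1.16, adjusted p = 0.00371). The exons of Tlr3 share 381 bases with the antisense gene Gm45542, and the libraries are unstranded, so that reads of both cannot be told apart there.

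Tlr7 and Tlr8, receptors of single-stranded RNA and its breakdown products, lie next to each other on the X chromosome (167304929 to 167330558 and 167242696 to 167264329, minus strand), but differed in level and pattern. Tlr7 held 14.5, 28.4, 26.1 and 12.6 CPM in WT LSKs and 14.1, 19.7, 12.6 and 16.9 CPM in URE LSKs. In GMPs, it was at 5.71, 4.53, 5.81 and 2.59 CPM in WT and 6.17, 4.91, 3.59 and 3.32 CPM in URE mice. The genotypes overlapped in both, with log2 fold changes of -0.40 ± 0.31 in LSKs (adjusted p = 0.70) and -0.07 in GMPs (adjusted p = 0.947). Tlr8 was at 1.21, 1.74, 2.0 and 1.97 CPM in WT GMPs and at 0.241, 0.313, 0.973 and 0.732 CPM in URE GMPs. The groups did not overlap, yet the log2 fold change of -1.61 ± 0.49 did not pass (adjusted p = 0.0814). With the replicate block it was -1.75 and passed (adjusted p = 0.0227), as did 6.82% of all genes tested in GMPs in that direction. DESeq2 gave -1.63 (adjusted p = 0.0158), and Tlr8 also passed without URE GMP replicate 3 (-2.05, adjusted p = 0.0391). In LSKs, Tlr8 held 0.480, 0.670, 0.312 and 0.604 CPM in WT mice and 0.468, 0.199, 0 and 0.209 CPM in URE mice, and the log2 fold change was -1.24 ± 0.76 (adjusted p = 0.553).

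Tlr13, a receptor of bacterial ribosomal RNA on the X chromosome (106143204 to 106160493, plus strand), was low throughout. It ranged from 0.312 to 1.58 CPM in WT LSKs, from 0.418 to 1.64 CPM in URE LSKs, from 0.736 to 1.91 CPM in WT GMPs and from 0.530 to 0.922 CPM in URE GMPs. The genotypes overlapped in both cell types, with log2 fold changes of -0.43 ± 0.62 in LSKs (adjusted p = 0.897) and -0.88 ± 0.40 in GMPs (adjusted p = 0.252). Leaving out 1 library gave -1.09 to -0.13 for Tlr13 in LSKs (adjusted p of 0.383 or more). Tlr9, the receptor of unmethylated CpG DNA (chromosome 9, 106222598 to 106226883, plus strand), was close to the limit of detection. Over 4 libraries each, it had 12 counts in WT and 2 in URE LSKs, and 21 counts in WT and 2 in URE GMPs. The ratio of URE to WT was 0.179 in LSKs (95% exact interval of the counts 0.0195 to 0.806) and 0.107 in GMPs (0.0122 to 0.439), where the intervals cover counting error only. An exact two-sided permutation test of log2 CPM gave p = 0.257 in LSKs and p = 0.143 in GMPs, while the smallest p that 4 against 4 libraries allow is 0.0286. A difference of Tlr9 was therefore not detectable beyond the spread between libraries.

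In WT mice, GMPs and LSKs differed in 5 of the 10 genes. Cd14 was higher in GMPs by 2.73 ± 0.25 on the log2 scale (6.65-fold, adjusted p = 0.000118), with 33.4 CPM in the lowest GMP and 7.49 CPM in the highest LSK library. Tlr1 was higher by 2.45 ± 0.37 (5.48-fold, adjusted p = 0.0015) and Tlr8 by 1.72 ± 0.36 (3.30-fold, adjusted p = 0.00661), both without overlap. Tlr7 was lower in GMPs, with a log2 fold change of -2.14 ± 0.37 (4.40-fold, adjusted p = 0.00285), 5.81 CPM in the highest GMP and 12.6 CPM in the lowest LSK library. Tlr4 was lower as well (log2 fold change -0.82 ± 0.26, adjusted p = 0.0425), with overlapping groups. The calls of Cd14, Tlr1 and Tlr7 were kept under each alternative run. That of Tlr4 was lost without each of 7 of the 8 libraries (all but WT LSK replicate 3, adjusted p up to 0.114), within replicates 2 and 3 (-0.62, adjusted p = 0.314), in the joint fit of 16 libraries (0.0708), with DESeq2's size factors (0.0523) and without a filter on low counts (0.0833). That of Tlr8 was lost in the joint fit (adjusted p = 0.0521) and within either pair of replicates (0.0909 and 0.0812). With the replicate block, Tlr3 was added as lower in GMPs (-1.25, adjusted p = 0.0343, compared with -1.05 and 0.153 without it). Tlr3 also passed without WT GMP replicate 2 (-1.72, adjusted p = 0.0152) and within replicates 1 and 4 (-2.16, adjusted p = 0.0246). Between the cell types of WT mice, 11.5% of the 14767 genes tested were higher in GMPs and 15.8% lower, or 25.1% lower with the block.

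In URE mice, 3 of the 10 genes were lower in GMPs than in LSKs and 0 were higher with edgeR, where Cd14 alone was higher at an unadjusted p below 0.05 and with DESeq2. The log2 fold change of Tlr2 was -2.21 ± 0.32 (4.64-fold, adjusted p = 0.0015), with GMP libraries at 3.92 CPM or less and LSK libraries at 9.86 CPM or more. In WT mice, Tlr2 differed by -0.31 ± 0.24 (adjusted p = 0.369). Tlr3 had a log2 fold change of -3.76 ± 0.80 (adjusted p = 0.0094) and Tlr7 of -1.85 ± 0.29 (adjusted p = 0.00205), and both calls were lost within replicates 2 and 3 alone (adjusted p = 0.179 and 0.0691). Without URE GMP replicate 2, Tlr3 was at -4.50 (adjusted p = 0.0153). Cd14 was higher in each URE GMP library (0.771 CPM or more) than in each URE LSK library (0.629 CPM or less), by 2.69 ± 0.95 on the log2 scale, and did not pass (adjusted p = 0.0722). Leaving out 1 library gave 2.03 to 3.36, and no such fit passed (adjusted p from 0.0616 to 0.211). Cd14 passed with the replicate block at 2.92 (adjusted p = 0.00707), and also with DESeq2 (2.79, adjusted p = 0.0114) and in the joint fit (2.72, adjusted p = 0.00796). Cd14 further passed with Y-linked transcripts as covariate (2.83, adjusted p = 0.0485), with a term for replicates 1 and 4 (2.93, adjusted p = 0.00648) and within replicates 1 and 4 (3.71, adjusted p = 0.0334). Its value was close to that in WT mice at a far lower level, and the interaction was -0.03 (adjusted p = 1.0). Tlr1, Tlr8 and Tlr9 had too few counts for a test in URE mice. Among all 14395 genes tested, 9.20% were higher and 12.6% lower in GMPs, or 13.3% higher with the block.

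Levels of different genes can be compared only per length. Per kb of exon, Tlr2 was the highest of the 10 genes in WT LSKs at 7.05 ± 1.48 CPM per kb (SD, n = 4), followed by Tlr7 at 4.99 ± 1.96, Tlr4 at 4.70 ± 1.28 and Cd14 at 3.27 ± 0.886. The ranges of these neighbours overlapped, so that their order is not set beyond the spread between libraries. Tlr6 at 2.0 ± 0.284 and Tlr3 at 0.533 ± 0.0997 followed, each below its predecessor in every library. Tlr13, Tlr1, Tlr8 and Tlr9 were at 0.238 CPM per kb or less. In WT GMPs, Cd14 led with 21.9 ± 2.85 CPM per kb, above all other receptors in every library. It was followed by Tlr2 (5.72 ± 1.2), Tlr4 (2.67 ± 0.519) and Tlr6 (2.34 ± 0.525), of which Tlr2 did not overlap with Tlr4. In URE mice, Cd14 took place 7 of 10 in LSKs (0.176 ± 0.168 CPM per kb) and place 3 in GMPs (1.19 ± 0.974), where the 5 highest genes, Tlr6, Tlr4, Cd14, Tlr7 and Tlr2, each overlapped with the next. With the longest transcript as length, Tlr4 and Tlr7 in WT LSKs and Tlr6 and Tlr4 in URE GMPs exchanged places.

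**Figure D3:**
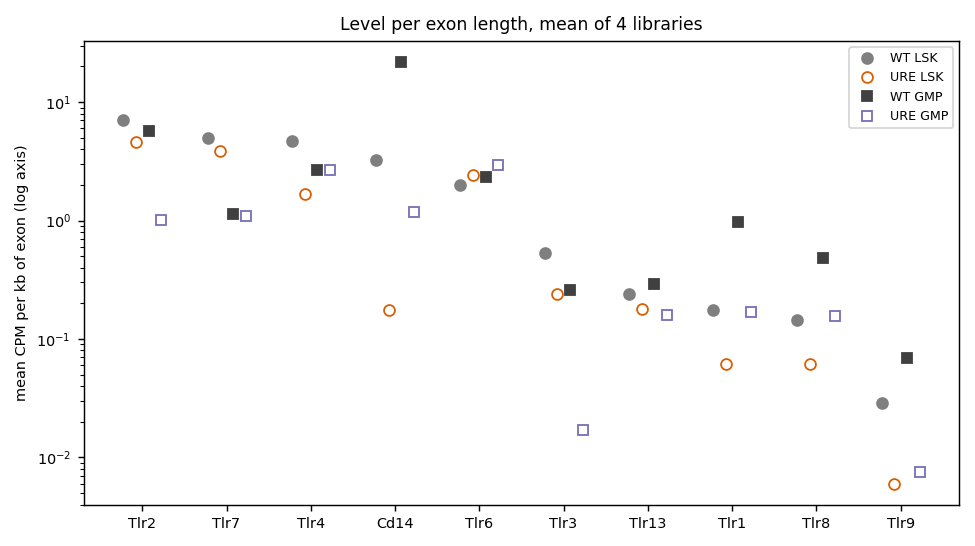
Mean CPM per kb of exon over 4 libraries, on a log axis, for each gene and group, ordered by the level in WT LSKs. Cd14 spans the widest range, from 0.176 in URE LSKs to 21.9 in WT GMPs, while Tlr6 stays between 2.0 and 2.96.

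Promoter sequences are shown because Tlr1 and Tlr8, like Cd14, were higher in WT GMPs than in WT LSKs, whereas Tlr6, the neighbour of Tlr1, passed no test. RefSeq promoter windows of build GRCm38.p6 were at hand for 7 of the 10 genes, Tlr1, Tlr2, Tlr3, Tlr6, Tlr8, Tlr9 and Tlr13, with 9 windows of 250 bases before a transcription start. The letters GAGGAA, the core that PU.1 is known to bind, were searched on both strands and found in 4 of the 9 windows (1 each of Tlr1, Tlr8, Tlr9 and Tlr13), compared with 23.3% of 32851 promoter windows of the same length. The longer GAGGAAGT, which contains that core, was found in Tlr1, 23 bases before its start, and in 2.44% of all windows. No match says only that these letters are not in the window, and a match is not shown to be bound. Below are the stretches outside annotated exons, 5′ to 3′ on the gene's strand, with GAGGAA or its reverse complement TTCCTC in capitals, for Tlr1 and Tlr8 and, without a match, Tlr2 and Tlr6. The letters did not go with a higher level in GMPs throughout, since Tlr13 also holds them but did not pass between the cell types of WT mice (0.29 ± 0.50, adjusted p = 0.726), while Tlr9 had too few counts for that test. Spi1 did not pass between these cell types either (0.16 ± 0.30, adjusted p = 0.747). Between genotypes in GMPs, Tlr1 passed as lower, as did Tlr2 and Tlr3 without a match (adjusted p = 0.00122 and 0.031). Tlr8 and Tlr13, which hold the letters, did not pass there with edgeR over all 8 libraries (0.0814 and 0.252). The printed stretches are Tlr1 (chr5:64933564-64933808, minus strand), Tlr8 (chrX:167264330-167264579, minus strand), Tlr2 (chr3:83841768-83841858, minus strand) and Tlr6 (chr5:64960098-64960298, minus strand).
Tlr1: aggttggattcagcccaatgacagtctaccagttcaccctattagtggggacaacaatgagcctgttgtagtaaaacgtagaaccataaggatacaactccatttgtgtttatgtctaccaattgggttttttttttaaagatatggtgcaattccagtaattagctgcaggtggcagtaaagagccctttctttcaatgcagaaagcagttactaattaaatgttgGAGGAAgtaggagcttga
Tlr8: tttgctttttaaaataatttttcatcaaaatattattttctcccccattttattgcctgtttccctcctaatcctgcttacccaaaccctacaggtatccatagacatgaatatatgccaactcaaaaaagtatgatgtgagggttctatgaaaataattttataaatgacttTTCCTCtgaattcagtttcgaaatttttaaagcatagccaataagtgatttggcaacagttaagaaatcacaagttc
Tlr2: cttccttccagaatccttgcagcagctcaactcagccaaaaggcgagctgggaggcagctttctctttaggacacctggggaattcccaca
Tlr6: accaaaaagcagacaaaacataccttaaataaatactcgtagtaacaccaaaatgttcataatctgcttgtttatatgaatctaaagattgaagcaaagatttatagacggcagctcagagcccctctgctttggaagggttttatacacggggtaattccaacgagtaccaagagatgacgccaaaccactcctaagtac

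Other motifs were searched in the same windows on both strands. TGTGGT, the core of RUNX factors, was found in Tlr6 and in 14% of all windows. A repeat of GAAA with a spacer of 2 bases, as in interferon response elements, was found in Tlr6, 110 and 116 bases before the start, and in 2.98% of all windows. TTGCNNAA, a C/EBP motif, was found in Tlr3, Tlr6 and Tlr8 and in 9.56% of all windows. The matches of Tlr6 lie in the window of another of its starts than the one printed. These counts are a description of 7 genes.

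For each gene tested in all 16 libraries, the 3 genes whose log2 CPM was most alike by Pearson's r were sought among 15935 genes. The libraries form 4 groups, so that r mostly reflects the differences between groups. Cd14 was most like Bex6 (r = 0.966), Ms4a6c (0.961) and Gng10 (0.960). Tlr2 was most like Il10rb (0.961), Abcb1b (0.954) and Rubcnl (0.949), and Tlr4 most like Gsdmd (0.918), Tgm1 (0.890) and Laptm5 (0.871). Pmaip1 came first for Tlr1 (0.958) and was also among the 3 genes of Tlr8 (0.891), so that both shared a gene among the most alike. Tlr1 was further followed by Ttll9 (0.924) and Inip (0.923), and Tlr8 was led by Lamtor1 (0.911) and Gal3st1 (0.907). Tlr3 was most like C1ra (0.960), Phf11b (0.938) and 9930111J21Rik1 (0.936), and Tlr7 most like Hdgfl3 (0.958), Smarca1 (0.953) and Hdx (0.944). The patterns of Tlr6 and Tlr13 were less well matched, with Tmem30a (0.825), Hibadh (0.820) and Mcf2l (0.803) for Tlr6 and Cavin2 (0.745), Sema6d (0.726) and BC051537 (0.723) for Tlr13.

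The other receptors of the family were considered next. Tlr12, an endosomal receptor of a parasite protein, was higher in URE LSKs, with 28.3, 20.4, 15.4 and 8.90 CPM against 5.6, 5.87, 4.13 and 6.88 CPM in WT LSKs. It was the single Toll-like receptor that passed as higher, with a log2 fold change of 1.67 ± 0.35 (adjusted p = 0.0225). The call was lost without 6 of the 8 libraries (adjusted p up to 0.0679) and within either pair of replicates (0.161 and 0.0807). In GMPs, Tlr12 did not pass (0.40 ± 0.50, adjusted p = 0.746). Tlr5, the flagellin receptor, and Tlr11 had too few counts for the fit with edgeR, while DESeq2 called both in LSKs. Tlr5 had 37 counts in WT and 1 in URE LSKs, a ratio of URE to WT of 0.0291 (exact interval 0.000718 to 0.173). Tlr11 had 31 and 0, where the exact interval of the ratio reached up to 0.136. Most WT counts came from 1 library each, with 22 of Tlr5 in WT LSK replicate 1 and 23 of Tlr11 in WT LSK replicate 2. For both, the exact permutation test in LSKs gave p = 0.0286, the smallest that 4 against 4 libraries allow. This separation hung on single counts. For Tlr5, WT LSK replicate 3 and URE LSK replicate 2 had 1 count each (0.039 and 0.0331 CPM). For Tlr11, WT LSK replicate 4 had 1 count, against 0 in the URE LSKs. In GMPs, they had 38 and 3 counts and 15 and 0 counts in WT and URE mice, where the exact test gave p = 0.0857 and p = 0.143.

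The remaining genes of the pathway were grouped by role into 8 lists of 65 genes, including these 3 receptors. In LSKs, 9 of the 55 tested genes were lower in URE mice, 2 were higher and 44 did not pass. In GMPs, 6 of 54 were lower, 1 was higher and 47 did not pass. The median log2 fold change was -0.27 in LSKs and 0.02 in GMPs, beside 0.001 and 0.005 over all genes. Both cell types had a test for 54 of these genes, of which 5 passed in both (Cd180, Ly86, Unc93b1, Irf5 and Ccl3), each as lower in URE mice. Beside this, LSKs and GMPs shared 13474 tests over all genes, and 2.81% of these genes passed in both, 1.67% as lower in each. Over all genes, 3.76% were lower and 2.38% higher in LSKs, and 3.63% and 4.67% in GMPs. With the replicate block, 9 pathway genes passed as lower and 7 as higher in GMPs, 16 in place of 7, while over all genes 6.82% were lower and 9.52% higher. In LSKs, 13 passed as lower and 2 as higher with the block, 15 in place of 11, beside 5.62% and 3.83% of all genes. With Y-linked transcripts as covariate, 6 passed in LSKs (lost were Ly86, Unc93b1, Ap3b1, Rel and Nfkbia) and 3 in GMPs (lost were Ly86, Slc15a4, Irak3 and Ccl3). Within replicates 2 and 3 alone, 1 passed in GMPs (Cd180) and 6 in LSKs.

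Of 5 genes for ligand transfer and co-receptors, 2 were lower in both cell types. Cd180, a Toll-like receptor homologue, was at 12.2 to 13.7 CPM in WT LSKs and at 0 to 1.18 CPM in URE LSKs (-4.84 ± 0.81, adjusted p = 0.00717), or -5.83 without URE replicate 3 (adjusted p = 0.0034). In GMPs, it was at 15.5 to 23.9 CPM in WT and 0.506 to 1.57 CPM in URE mice (-4.38 ± 0.41, adjusted p = 0.000463). Ly86, which binds Cd180, was lower too, with log2 fold changes of -3.16 ± 0.73 in LSKs (adjusted p = 0.0319) and -3.59 ± 0.92 in GMPs (adjusted p = 0.0432). Its calls were lost without 6 and 7 of the 8 libraries, with adjusted p up to 0.106 and 0.119. Without replicate 2 of the URE mice, its log2 fold changes were farther from 0, at -4.21 in LSKs (adjusted p = 0.00822) and -5.41 in GMPs (adjusted p = 0.00106). Ly96, the partner of Tlr4, did not pass in either cell type (-1.05 ± 0.34, adjusted p = 0.129, and -0.58 ± 0.41, adjusted p = 0.508), but was called in LSKs with DESeq2 and with a term for replicates 1 and 4. Lbp, which carries lipopolysaccharide to Cd14, did not pass in LSKs (-1.06 ± 0.28, adjusted p = 0.0562) or in GMPs (0.99 ± 0.27, adjusted p = 0.0526), yet the effects differed from each other by 2.03 ± 0.40 (adjusted p = 0.0223). With the replicate block, Lbp passed as lower in LSKs (-1.09, adjusted p = 0.0386) and as higher in GMPs (0.94, adjusted p = 0.0171).

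Among 5 genes for chaperones and trafficking, Unc93b1, on which the endosomal receptors depend, was lower in both cell types. It was at 93.5 to 192 CPM in WT and 49.8 to 72.5 CPM in URE LSKs (-1.22 ± 0.23, adjusted p = 0.0116), and at 136 to 330 CPM in WT and 35 to 82.0 CPM in URE GMPs (-2.13 ± 0.32, adjusted p = 0.00381). Slc15a4, a transporter of endolysosomes, was lower in GMPs (-1.41 ± 0.37, adjusted p = 0.0478), a call lost without 7 of 8 libraries. Ap3b1, a subunit of a sorting adaptor, was higher in LSKs (0.75 ± 0.15, adjusted p = 0.0176), a call lost without 3 of 8 libraries. Cnpy3 and Hsp90b1 passed in neither.

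Of 6 genes for TIR adaptors, Sarm1 had too few counts and Pik3ap1 was lower in LSKs (-2.26 ± 0.34, adjusted p = 0.00385). Myd88 was at 55.1 to 68.6 CPM in WT and 55.3 to 75.2 CPM in URE LSKs, and its log2 fold change was 0.00 in LSKs (adjusted p = 0.999) and 0.14 ± 0.16 in GMPs (adjusted p = 0.73). Of 16 kinases and ubiquitin ligases, 0 passed with edgeR in LSKs and 0 in GMPs, where 1 and 3 had an unadjusted p below 0.05. Over all genes, 2325 of 15154 in LSKs and 2808 of 13829 in GMPs had such a p. DESeq2 called 0 of the 16 in LSKs and Irak2 in GMPs. With the replicate block, 4 passed in GMPs, Irak2 (1.12, adjusted p = 0.00645) and Ikbke as higher and Tab2 and Chuk as lower, as did the adaptors Pik3ap1 (0.95, adjusted p = 0.0126) and Ticam1 as higher. Among 8 transcription factors, Irf5 was lower in LSKs (-3.45 ± 0.36, adjusted p = 0.000639) and in GMPs (-2.62 ± 0.42, adjusted p = 0.00537). Irf7 (-2.05 ± 0.34, adjusted p = 0.00677) and Rel (-1.68 ± 0.38, adjusted p = 0.0289), an NF-kB subunit, were lower in LSKs, and the call of Rel was lost without 6 of 8 libraries. In GMPs, Rel passed with the replicate block (-1.36, adjusted p = 0.0133, against -1.40 and 0.104 without it) and with DESeq2. The call of Irf5 in GMPs was lost within replicates 2 and 3 (adjusted p = 0.226).

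**Figure D4:**
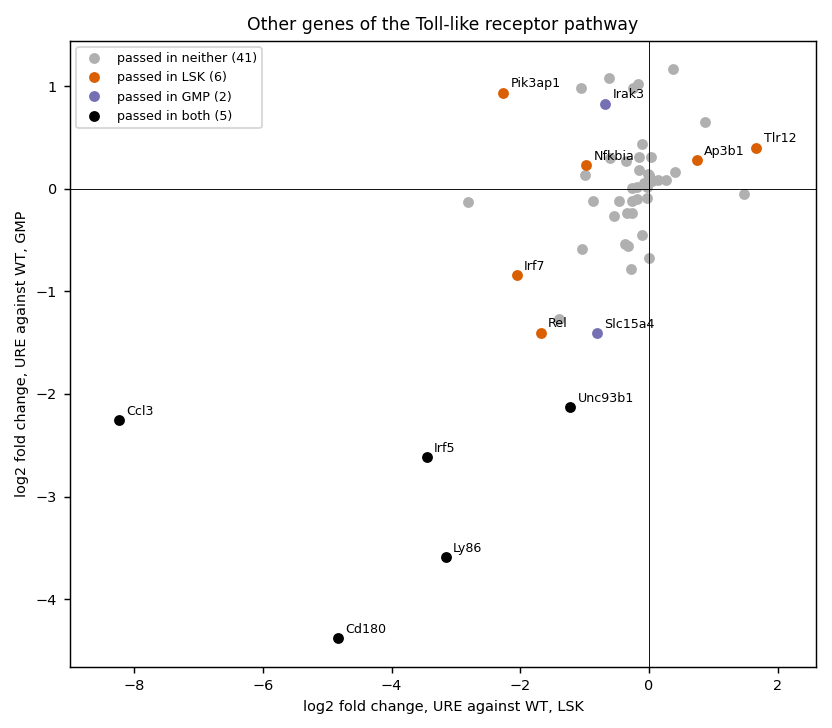
Log2 fold change between URE and WT mice of the 54 other pathway genes tested in both cell types, in LSKs (horizontal) and in GMPs (vertical), coloured by where they passed the test. The 5 genes that passed in both lie in the lower left, and 41 genes passed in neither.

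Of 8 negative regulators, Nfkbia, the inhibitor of NF-kB, was lower in LSKs (-0.97 ± 0.23, adjusted p = 0.0364), a call lost without 7 of 8 libraries. Irak3, an inhibitory kinase homologue, was higher in GMPs (0.83 ± 0.18, adjusted p = 0.0208), a call lost without 5 of 8 libraries, and had a log2 fold change of -0.68 ± 0.20 in LSKs (adjusted p = 0.101, or 0.0396 with the replicate block). Its effects differed by 1.49 ± 0.28 (adjusted p = 0.0158). Tnfaip3, a deubiquitinase that restrains NF-kB signalling, passed as higher in GMPs with the replicate block (1.06, adjusted p = 0.0252, against 1.02 and 0.0523 without it). Of 14 induced targets, 7 were tested in LSKs and 6 in GMPs. Ccl3, a chemokine, was at 9.09 to 23.2 CPM in WT LSKs and at 0 to 0.0779 CPM in URE LSKs, that is 1704 and 5 counts over the group, with a log2 fold change of -8.24 ± 0.62 (adjusted p = 0.000128). In GMPs it was at 0.693 to 1.71 CPM in WT and 0.0563 to 0.410 CPM in URE mice (-2.26 ± 0.57, adjusted p = 0.0417, lost without 6 of 8 libraries). With the replicate block, the chemokines Ccl4 (-0.91, adjusted p = 0.0413) and Cxcl10 (-3.25, adjusted p = 0.0362) passed as lower in LSKs as well. In WT mice, 6 of 7 tested targets were lower in GMPs than in LSKs, beside 15.8% of all genes.

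Markers of other cells and of progenitors moved with these results. In bulk samples, fewer cells of a type and less RNA per cell cannot be told apart. Of 9 monocyte and macrophage markers, 3 were lower in URE LSKs (Csf1r, Cx3cr1 and Itgam) and 3 in URE GMPs (Csf1r, Ccr2 and Adgre1). Their summed level was 65.2 to 114 CPM in WT and 15.1 to 37.3 CPM in URE LSKs, and 1400 to 1850 CPM in WT and 387 to 1770 CPM in URE GMPs, with 0 markers at zero counts in any group. Ly6c2, a large part of the sum in GMPs, went the other way, with a mean of 630.8 CPM in URE and 305.9 CPM in WT GMPs and of 7.59 and 4.17 CPM in LSKs, and did not pass (adjusted p = 0.287 in GMPs and 0.447 in LSKs). URE GMP replicate 2 had the sum of 1770 CPM, with Ly6c2 at 1193 CPM, while 7 of the 9 markers, among them Csf1r (26.3 CPM), Ccr2 (59.7 CPM), F13a1 (452.6 CPM) and Adgre1 (7.15 CPM), lay below every WT GMP library there. The exceptions were Ly6c2 and Itgam, at 13.2 CPM beside 11.8 CPM in WT GMP replicate 3. Of 9 mature neutrophil markers, 1 was higher in URE LSKs, and in URE GMPs 2 were higher (Ngp and Retnlg) and 1 lower (Mmp8, at a mean of 0.853 CPM in URE and 6.90 CPM in WT GMPs). Their sum was 37.8 to 180 CPM in WT and 178 to 361 CPM in URE LSKs, and 67.8 to 171 CPM in WT and 227 to 1010 CPM in URE GMPs, while Ly6g did not exceed 0.470 CPM in any library. Of 9 dendritic cell markers, 2 were lower in each cell type, and their sum was 217 to 480 and 97.5 to 224 CPM in WT and URE LSKs and 183 to 290 and 45.2 to 91.0 CPM in WT and URE GMPs. Siglech was at 0 in URE LSKs, and Cd209a in URE GMPs. Ccr9, of the same list, was at 0.313 to 4.96 CPM in URE and 0.0415 to 0.259 CPM in WT GMPs, where it had too few counts for the test, and at a mean of 31.2 CPM in URE and 7.33 CPM in WT LSKs (adjusted p = 0.218). The B cell receptor gene Cd79b was lower in URE LSKs and in URE GMPs (adjusted p = 0.0085 and 0.00349), and Ighm in URE GMPs (adjusted p = 0.00547). In LSKs, Ighm overlapped between the genotypes, at 177 to 1254 CPM in URE and 549.1 to 799.8 CPM in WT mice. Of 5 T and NK cell markers, Nkg7 was the 1 with a test in GMPs, and it was higher in URE GMPs (1348 to 2226 CPM, compared with 562 to 975.2 CPM). The rest of that list was nearly absent in URE GMPs, with 0 counts of Cd3e and 7, 14 and 10 of Cd3g, Cd3d and Ncr1. Itga2b was the 1 erythroid and megakaryocyte marker that was higher in URE LSKs. Of 5 markers of granulocyte-monocyte progenitors, Prtn3 was lower in URE LSKs (21.2 to 59.4 CPM, compared with 147 to 252.7 CPM in WT) and Elane higher, while Ms4a3 was lower in URE GMPs (80.2 to 404 CPM, compared with 429.4 to 801.7 CPM). Their sum, mostly Mpo in GMPs, was 686 to 1480 CPM in URE and 972 to 1600 CPM in WT LSKs, and 73000 to 159000 CPM in URE and 55300 to 70800 CPM in WT GMPs. Of 5 stem and multipotent progenitor markers, 1 passed, Flt3, which was lower in URE LSKs (156.5 to 355.3 CPM, compared with 359 to 1207 CPM) and in URE GMPs (10.4 to 29.1 CPM, compared with 78.4 to 231.8 CPM). Their sum overlapped between the genotypes, at 1170 to 1660 CPM in URE and 1010 to 2410 CPM in WT LSKs and 70.2 to 196 CPM in URE and 121 to 353 CPM in WT GMPs. Of the 5 sort markers, Fcgr2b (0 to 1.03 CPM, compared with 11.8 to 14.5 CPM) and Ptprc were lower in URE LSKs, and Fcgr3 was higher in URE GMPs (507.7 to 1328 CPM, compared with 228.5 to 424 CPM). In GMPs, Fcgr2b was lower by its mean in URE mice (51.8 CPM, compared with 89.2 CPM in WT), with overlapping groups. Fcgr3 and Fcgr2b encode the Cd16/32 antigens by which GMPs were sorted. Over the alternatives run, adjusted p did not exceed 0.0369 for Fcgr2b and 0.0109 for Prtn3 in LSKs, while it reached 0.0587 to 0.313 for the other progenitor and sort markers named as changed. The part of any of these cells, or of a different makeup of the progenitors, in the differences of the 10 genes was not tested.

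**Figure D5:**
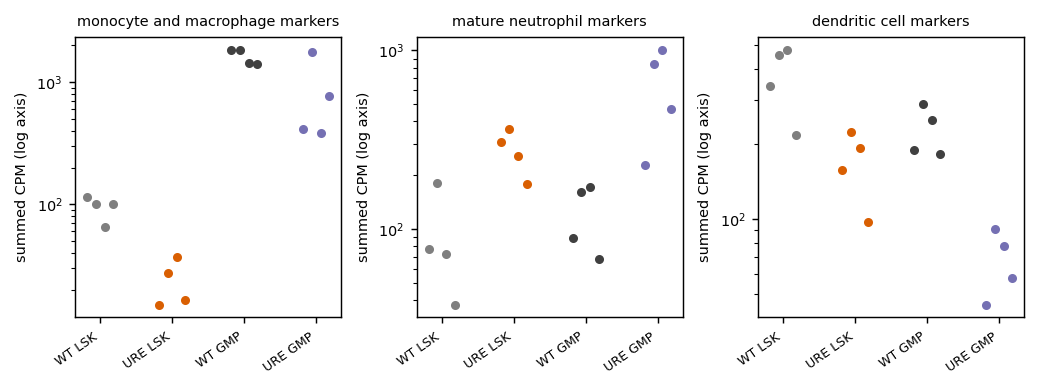
Summed CPM of 3 marker lists in each library, on log axes, by group. The sum of monocyte and macrophage markers is lower in URE LSKs and in 3 of 4 URE GMP libraries, although Ly6c2 within it is not, and the sum of neutrophil markers is higher in each URE GMP library than in each WT GMP library, although Mmp8 within it is lower.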

How the data were processed

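RNA of sorted LSKs and GMPs (up to 10 ng per library) was made into unstranded polyA libraries without molecular identifiers. The authors deposited estimated counts per gene, obtained with salmon and summed with tximport, given as whole numbers and not normalized, on build GRCm38 per the submitters' processing notes. The annotation release for these libraries is not given in the sources used here. The study's appendix names a GENCODE release for its single-cell data. Positions and lengths were taken from GENCODE M21, to which 54094 of 54347 gene IDs matched. Each comparison was fitted over its 8 libraries (the interaction over 16) with edgeR 4.0.16 in R 4.3.3, using filterByExpr, TMM normalization and the quasi-likelihood test. Genes were called at a Benjamini-Hochberg adjusted p below 0.05 over all genes tested and a fold change above 1.5 (the interaction by adjusted p alone). Members and lists were chosen with earlier results of these data known. All 10 members, Spi1, up to 6 genes of each pathway list (called genes first), the 3 most alike genes and markers that moved with a result are named. Samples with the same replicate number deviated together (r of 0.24 to 0.71 over 15935 genes, every pair above 0.1). Some samples of different numbers did so as well. URE LSK replicate 4 had r = 0.398 with WT LSK replicate 1 and 0.282 with WT LSK replicate 4. Whether the numbers pair the samples is therefore not settled. The replicate block is printed where it changes a call of a member. DESeq2 1.42.0, other size factors, filters, thresholds, a joint fit, covariates, subsets of replicates and leaving out each library were run as alternatives. The fits within pairs of replicates and the pathway counts under each alternative were added after seeing the data. P-values measure the spread between 4 mice per group, and count intervals cover counting error only.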

Additional observations from a re-analysis of the deposited data

Results flagged for a closer look

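In 8 of 96 groups of 4 libraries checked, 1 library lay far from the other 3 (Dixon's test at the 95% level), where chance gives about 1 in 20. Tlr2 was at 14.6 CPM in WT LSK replicate 3, against 23.1 to 23.9 CPM in the others. Tlr13 was at 1.64 CPM in URE LSK replicate 3, against 0.418 to 0.545 CPM. Tlr9 was at 0.0835 CPM in URE LSK replicate 4 and at 0.104 CPM in URE GMP replicate 2, with 0 in the remaining libraries of both groups, and both values rest on 2 counts. Ap3b1 was at 110 CPM in WT LSK replicate 3, against 149 to 157 CPM. In URE GMP replicate 3, Irak3 was at 119 CPM, against 172 to 176 CPM, and Rel at 4.97 CPM, against 14.7 to 14.9 CPM. Ly86 was at 18.4 CPM in URE GMP replicate 2, against 0.819 to 2.10 CPM, and this library also had the highest summed level of monocyte markers among URE GMPs (1770 CPM), whose part in the value was not tested.

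For 5 of the genes named, the genotype effects in the 2 cell types differed in edgeR's interaction test. It was 2.64 on the log2 scale for Spi1 (adjusted p = 0.0218), with log2 fold changes of -5.39 in LSKs and -2.73 in GMPs. Over the alternatives run, this difference of Spi1 was 2.30 to 3.05, and its call was not always kept (adjusted p up to 0.681). The difference was -1.88 on the log2 scale for Tlr2 (adjusted p = 0.0255), 2.03 for Lbp (adjusted p = 0.0223), 1.49 for Irak3 (adjusted p = 0.0158) and 5.93 for Ccl3 (adjusted p = 0.00385). For Tlr2 and Ccl3 both cell types had a log2 fold change below 0, while those of Lbp and Irak3 had opposite signs.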

How the results depend on the processing

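Of 15 calls among the 10 genes, 0 changed direction in 275 alternative values and 33 of these values no longer passed. The calls of Cd14 in GMPs between genotypes, of Tlr1, Tlr7 and Cd14 between the cell types of WT mice and of Tlr2 between those of URE mice passed under each alternative run. The number of the 10 genes called was 1 in LSKs with Y-linked transcripts as covariate, with adjusted p under 0.01 and within replicates 2 and 3, and 2 and 1 in GMPs under the latter 2 settings. Between cell types it was 3 in WT mice in the joint fit and within replicates 2 and 3, and 1 in URE mice within replicates 2 and 3. For the interaction it was 2 with DESeq2 and with the replicate block, and 0 with adjusted p under 0.01 and within either pair of replicates. Leaving out 1 library gave 2 to 4 genes in GMPs (2 without URE GMP replicate 1 or 4) and 0 to 2 for the interaction (0 without URE GMP replicate 4 or WT LSK replicate 2, 2 without URE GMP replicate 3). The pathway count was 17 in LSKs with DESeq2 and with a term for replicates 1 and 4, 6 with Y-linked transcripts, 5 with adjusted p under 0.01, 6 within replicates 2 and 3, and 6 to 10 leaving out 1 library (lowest without WT LSK replicate 2). In GMPs it was 11, 13, 3, 3 and 1 in the same order, 16 with the replicate block, and 3 to 9 leaving out 1 library. Apart from the calls named beside their genes, the replicate block changed no other call of the 10 genes. The cause of these changes was not tested. Shares over all genes are given above for the main fit and the replicate block only, so the counts under other settings stand without them.

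Direction changed in 12 tests of the 10 genes, none of them called. Within replicates 1 and 4, log2 fold changes were 0.17 for Tlr7 in LSKs, 0.18 for Tlr7 in GMPs, -0.14 (WT) and 0.19 (URE) for Tlr13 between cell types, and for the interaction -0.006 (Tlr7), 0.31 (Tlr13) and 0.62 (Cd14). Within replicates 2 and 3 they were 0.15 for Tlr13 in LSKs, 0.17 for Tlr4 in GMPs, and for the interaction 0.46 (Tlr1), -0.088 (Tlr6), 0.64 (Tlr8) and 0.084 (Cd14). With Y-linked transcripts as covariate, they were 0.37 for Tlr7 in GMPs and 0.034 for Cd14 in the interaction. Leaving out 1 library gave -0.38 to 0.20 for Tlr4 and -0.28 to 0.058 for Tlr7 in GMPs, -0.003 to 0.57 (WT) and -0.39 to 0.50 (URE) for Tlr13 between cell types, and for the interaction -0.14 to 0.15 (Tlr6), -0.82 to 0.26 (Tlr8), -0.75 to 0.19 (Tlr13) and -0.71 to 0.64 (Cd14). Depth limits Tlr9, Tlr5 and Tlr11, and Tlr1 and Tlr8 in URE mice.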
